A study of Mus musculus with 12 samples.

Results

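The genes described here encode subunits of the voltage-gated sodium channel (Scn4a and Scn4b) and of the pacemaker channel (Hcn2 and Hcn4). They were looked up by symbol, and by gene ID, among the probe sets that the array's annotation gives to 1 gene alone. Of the 4 symbols, 2 had such a probe set, Scn4b and Hcn2, with 1 probe set each, out of 18193 genes so named. No probe set carried Scn4a or Hcn4, either alone or together with another gene, in the annotation used here, and neither gene was analysed here. The probe sets of Scn4b and Hcn2 lay above a log2 signal of 4, the level below which a probe set counts as dim, on all 12 arrays.

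Voltage-gated sodium channels open on depolarisation and carry the fast inward current that starts the action potential of heart muscle. A pore-forming alpha subunit is joined by small beta subunits that span the membrane with an immunoglobulin-like domain outside the cell and tune gating and surface level. Pacemaker channels open on hyperpolarisation, bind cyclic AMP and carry the inward current of the sinus node. In working ventricular muscle that current is small in the healthy adult and is known to increase in hypertrophied hearts.

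The study placed a band around the aorta of male C57BL/6 mice, which loads the left ventricle, and took total RNA from that ventricle, 1 array per mouse. AB mice were banded at 7 weeks of age and studied 4 weeks later, and sAB mice had a sham operation instead. DB3 mice were banded, had the band removed after 4 weeks and were studied 3 days after that debanding, and sDB3 mice had a sham procedure and the second operation at the same times. Each group held 3 mice, and the labels name neither the segment of aorta nor a litter, batch or day.

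The sAB arrays stood apart from the other 9 on BioC, a bacterial control transcript added in the hybridisation. Its mean log2 signal was 8.29 to 8.60 on the AB arrays, 10.15 to 10.51 on the sAB arrays, 8.32 to 8.45 on the DB3 arrays and 8.28 to 8.60 on the sDB3 arrays, so that in comparisons with sAB this shift and the group cannot be told apart. The difference between 3' and 5' probe sets of Actb, a sign of RNA quality, was 1.02 to 1.13 in AB, 1.20 to 1.26 in sAB, 1.11 to 1.32 in DB3 and 1.20 to 1.25 in sDB3 (log2). All 10 ventricular muscle markers were above the dim level, led by Myh6 and Tnnt2. Of the 17 skeletal muscle markers 13 were dim, as were 8 of 11 neuron and glia markers and 5 of 12 markers of the conduction system and sinus node. The atria had been cut away before freezing, yet 8 of 9 atrial markers were above the dim level, led by Myl7 and Myl4, with a summed log2 signal of 11.47 to 13.29 in AB, 10.95 to 11.69 in sAB, 11.19 to 14.06 in DB3 and 12.12 to 14.17 in sDB3. Arrays were compared with limma over 10435 genes, with Benjamini-Hochberg adjustment over all of them and a threshold of 0.05. In whole ventricle, fewer cells of a type and less RNA per cell cannot be told apart.

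Scn4b encodes the beta-4 subunit, which forms a disulfide bond with the alpha subunit, and lies on mouse chromosome 9. Hcn2 encodes a pacemaker channel subunit found in the ventricle as well as in the sinus node, and lies on chromosome 10. No link between the sequence before a gene and its signal was tested. The 150 bases before the annotated start of each gene are shown because both genes were measured in the same hearts. They come from RefSeq (GRCm38.p6, plus strand), chr9:45138474-45138623 for Scn4b and chr10:79716484-79716633 for Hcn2, and capitals mark the motifs found.
Scn4b: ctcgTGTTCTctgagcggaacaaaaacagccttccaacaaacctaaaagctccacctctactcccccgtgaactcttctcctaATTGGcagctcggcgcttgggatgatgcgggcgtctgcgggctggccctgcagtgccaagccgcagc
Hcn2: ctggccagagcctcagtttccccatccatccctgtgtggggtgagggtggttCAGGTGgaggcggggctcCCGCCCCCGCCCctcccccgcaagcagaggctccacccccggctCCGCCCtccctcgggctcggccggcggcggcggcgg
In the 250 bases before the start, G and C made up 66% of the letters for Scn4b and 70.4% for Hcn2, against a median of 52.4% over 32851 promoter windows. The motifs were searched on both strands. The Hcn2 window held 3 GC boxes (GGGCGG, in 32.7% of all windows), of which a pair lies end to end, and 1 E-box (CANNTG, in 66.2%). The Scn4b window held 1 CCAAT box (CCAAT, in 33.8%) and 1 glucocorticoid receptor hexamer (AGAACA, in 16.1%). Neither window held the TATA box TATAAA (12.4%), the T-box core GGTGTG (16.3%), the GATA site AGATAA (9.99%), the MEF2-like CTAAAAATA (0.469%) or the RE1 parts TTCAGCACC (0.301%) and GGACAG (18.7%).

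Scn4b was lowest in banded hearts and about 2.0-fold higher in hearts from which the band had been removed. DB3 mice also had a second operation and 3 further days, which DB3 against AB cannot tell apart from debanding. Between the shams, sDB3 minus sAB was 0.46 ± 0.16 (SE, limma adjusted p = 0.0743), and the difference of effects missed the threshold (adjusted p = 0.187). The Scn4b log2 signals were 7.57, 8.02 and 8.23 in DB3 hearts, against 6.99, 6.86 and 6.98 in AB hearts. All 3 DB3 hearts lay above all 3 AB hearts, as for 14.7% of all genes, and the nearest pair was 0.59 apart. The mean was 7.94 ± 0.33 in DB3 and 6.94 ± 0.071 in AB (SD, n = 3 each). The log2 difference, DB3 minus AB, was 0.997 ± 0.16 (SE, 95% interval 0.63 to 1.36, limma adjusted p = 0.0057), a fold of 1.55 to 2.57 over that interval. Of all genes tested 9.16% passed in this comparison, and 66 of them (0.632%) had a higher difference than Scn4b. These groups share 1 level of BioC, and the call kept its side of the threshold without any 1 array, with adjusted p-values of 0.00325 to 0.0286. The summed atrial signals of the DB3 hearts were 11.57, 14.06 and 11.19, beside Scn4b signals of 7.57, 8.02 and 8.23, and the part of atrial tissue was not tested. The summed log2 signal of the skeletal muscle markers was 9.94 to 10.20 in AB hearts and 9.14 to 9.32 in sAB hearts. It was 8.86 to 9.29 in DB3 and 8.92 to 9.03 in sDB3 hearts. Within this list Mybpc2 was 9.24 to 9.44 in AB, 7.65 to 8.08 in sAB and 7.72 to 8.35 in DB3. In sDB3 it was 7.34 to 7.78. Casq1 and Cacna1s overlapped between AB and sAB hearts, and Mylpf was lower in every AB than in every sAB heart. As a mean log2 signal the list overlapped between AB (3.35 to 3.41) and sAB (3.35 to 3.44). The highest such mean over DB3 and sDB3 hearts was 3.33, below every AB heart. The endothelial sum was 12.49 to 12.58 in AB, 12.38 to 12.42 in sAB, 12.09 to 12.41 in DB3 and 12.05 to 12.36 in sDB3. The conduction system and sinus node sum was 10.94 to 11.20 in AB, 10.56 to 10.78 in sAB, 10.63 to 10.93 in DB3 and 10.71 to 10.89 in sDB3. Taken as a mean log2 signal, that list overlapped, at 4.44 to 4.85 in AB and 4.51 to 4.66 in sAB. The skeletal muscle, endothelial and conduction sums were thus each higher in every AB heart, where Scn4b was low. Their part in the Scn4b results was not tested. In DB3 against AB, 1 of 4 tested skeletal muscle markers was higher and 2 lower, and of 7 endothelial markers 0 were higher and 1 lower. Of 7 tested conduction markers, 0 were higher and 1 lower there as well. No atrial marker of 8 passed in either direction between DB3 and AB with limma (1 higher and 0 lower at an unadjusted p under 0.05, and 0 passing in an unmoderated analysis of variance).

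**Figure D1:**
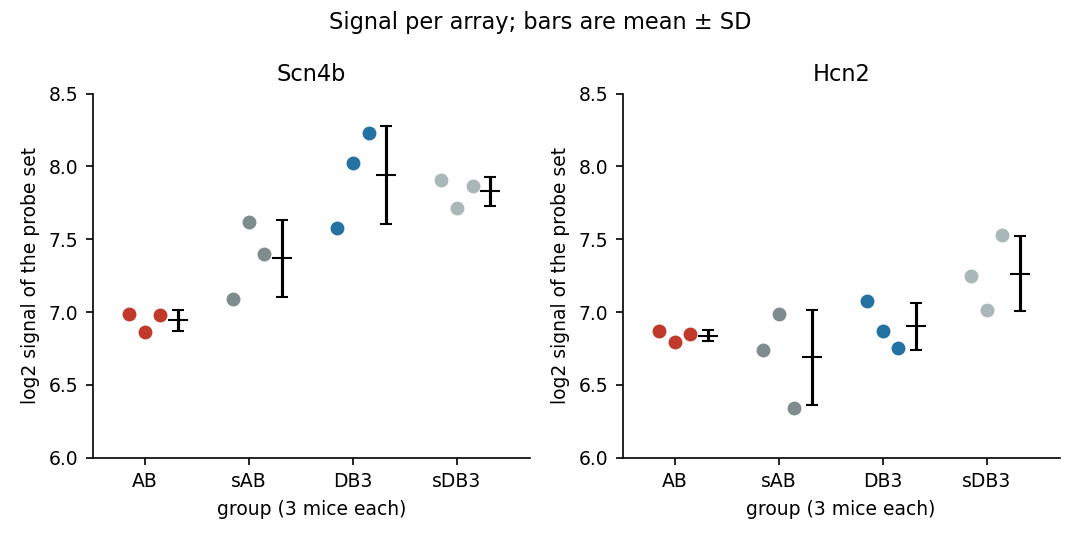
Log2 signal of the Scn4b and Hcn2 probe sets (y axis) on each of the 12 arrays, in the groups AB, sAB, DB3 and sDB3 (x axis). Points are mice and bars are the mean ± SD of 3. The 3 AB points of Scn4b sit between 6.86 and 6.99, below every other array, and the 3 sDB3 points of Hcn2 between 7.02 and 7.53, above both the AB and the sAB points.

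Banded hearts were also low in Scn4b against the later sham. The sDB3 hearts had log2 signals of 7.91, 7.72 and 7.86, above every AB heart by at least 0.73, and 10.5% of all genes had AB wholly below sDB3. Scn4b was 1.85-fold lower in AB than in sDB3 (95% interval 1.44 to 2.37), a log2 difference of -0.88 ± 0.16 (SE, adjusted p = 0.00511). In this comparison 22% of genes passed, the median gene stood at 0.11, and 77 genes (0.738%) had a lower difference than Scn4b. This comparison uses the same AB arrays as DB3 against AB, so the pair of results is not independent. The Actb 3' to 5' difference was lower in every AB than in every sDB3 array, and its part in the result was not tested. Ventricular muscle markers had a median log2 difference of -0.11, with 2 of 10 (Tnni3 of the thin filament and the calcium release channel Ryr2) lower. Of the endothelial markers 5 of 7 were higher, at a median of 0.35, and of the atrial markers 1 of 8, the potassium channel gene Kcnj3, was lower, at a median of -0.71. An alternative added after seeing the data took the signals relative to the mean of the 10 ventricular muscle markers. There Scn4b was lower in AB than in sDB3 by a log2 difference of -0.78 (limma adjusted p = 0.00701).

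Against its own sham the Scn4b difference in AB missed the threshold. The sAB hearts had Scn4b signals of 7.09, 7.62 and 7.40. Every AB heart lay below every sAB heart, by as little as 0.10, where 19% of all genes had AB wholly below sAB. The log2 difference, AB minus sAB, was -0.42 ± 0.16 (SE, 95% interval -0.79 to -0.06, limma adjusted p = 0.0954), and 19.7% of genes passed. Without DB3 replicate 1, which changes the pooled spread and not the difference, the adjusted p was 0.0405. Neither member passed in AB against sAB (0 of 2 with limma, 1 of 2 at an unadjusted p under 0.05, 0 of 2 in an unmoderated analysis of variance).

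Debanded hearts and their shams overlapped in Scn4b. The mean was 7.94 ± 0.33 in DB3 and 7.83 ± 0.10 in sDB3 (SD, n = 3 each), and the 3 sDB3 values lay inside the range of the DB3 values. The log2 difference, DB3 minus sDB3, was 0.11 ± 0.16 (SE, adjusted p = 0.70), with a 95% interval of -0.25 to 0.47 that spans folds of 0.841 to 1.39. Its sign turned when each array was centred on its median and without DB3 replicate 3 (-0.017 and -0.031). The difference between the shams, sDB3 minus sAB, was 0.46 ± 0.16 (adjusted p = 0.0743, 17.8% of genes passing), with every sDB3 heart above every sAB heart by at least 0.099, as for 11.1% of all genes. It passed after quantile normalization (0.54, adjusted p = 0.0494), after median centring (0.57, adjusted p = 0.0445) and without DB3 replicate 1 (0.46, adjusted p = 0.0332). The difference of effects, DB3 minus sDB3 less AB minus sAB, was 0.54 ± 0.23 (95% interval 0.02 to 1.05, adjusted p = 0.187), where 6.04% of genes passed. From low to high the group means ran AB, sAB, sDB3, DB3, and no neighbours in that order differed past the threshold. Over the 4 groups Scn4b passed limma's F test (F = 15.5, adjusted p = 0.0044), as did 37.2% of genes.

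**Figure D2:**
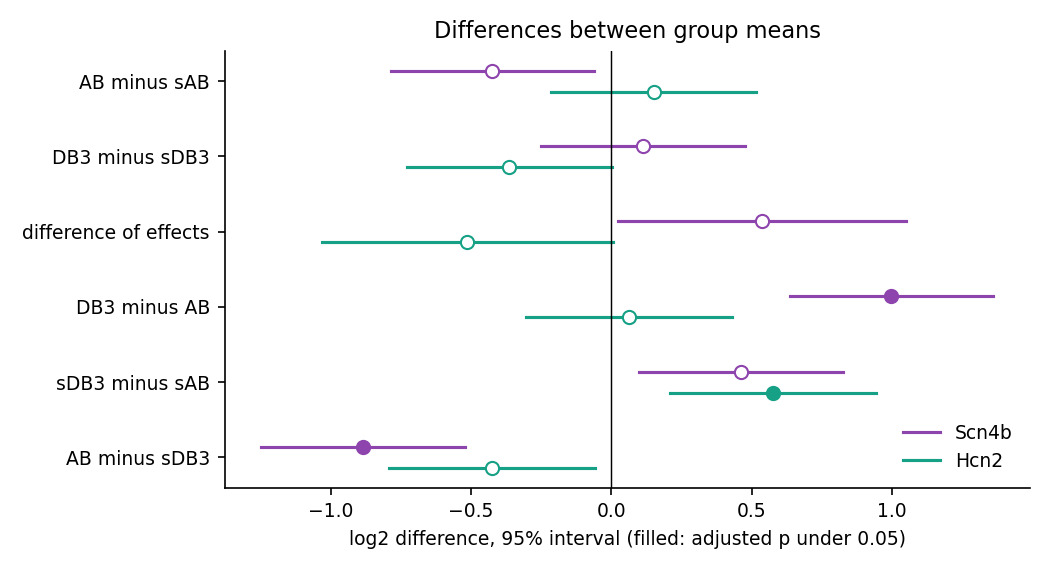
Log2 differences between group means (x axis, 95% intervals) for Scn4b and Hcn2 in 6 comparisons (y axis), with filled points at an adjusted p under 0.05. Scn4b passed in DB3 minus AB (0.997) and AB minus sDB3 (-0.88), and Hcn2 in sDB3 minus sAB (0.58).

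Hcn2 followed another order, with its highest signals in the later sham. Its log2 signals were 7.25, 7.02 and 7.53 in sDB3 hearts, against 6.74, 6.98 and 6.34 in sAB hearts. The groups did not overlap, with sDB3 wholly above sAB as for 11.1% of all genes, but the nearest hearts were 0.033 apart. The log2 difference, sDB3 minus sAB, was 0.58 ± 0.17 (SE, 95% interval 0.21 to 0.94, adjusted p = 0.037), a 1.49-fold rise. Of all genes 17.8% passed in this comparison, and 272 (2.61%) had a higher difference than Hcn2. The call ended without AB replicate 1, 2 or 3, sAB replicate 1 or 3, or sDB3 replicate 1 or 3 (adjusted p up to 0.108), and without sAB replicate 3, its lowest array, the difference was 0.40. It also ended with no filter on dim probe sets, with the compared groups alone and in the unmoderated analysis of variance (adjusted p = 0.0949, 0.122 and 0.0691). This is a comparison with sAB, whose arrays also differ in BioC. The atrial markers had a median difference of 0.72 in it, from 0.26 to 3.89, with 1 of 8 past the threshold, the nuclear receptor Nr2f2. The mean of Myl7, which missed it, was 11.83 in sDB3 and 8.52 in sAB. The summed atrial signal was 13.66, 14.17 and 12.12 in sDB3 hearts, above every sAB heart (11.68, 10.95 and 11.69). The sDB3 heart with the lowest atrial sum was the one with the highest Hcn2 signal. Leukocyte markers had a median difference of -0.71, with 1 of 5 lower, Ptprc. Their summed log2 signal was 10.73, 10.75 and 10.90 in sDB3 hearts, against 10.95, 11.19 and 12.06 in sAB hearts, and the sAB heart with the highest sum was the one with the lowest Hcn2 signal. Of 3 neuron and glia markers 1 was higher, Sox10, and of 7 endothelial markers 1 was lower, Emcn. The part of these markers in the Hcn2 difference was not tested.

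Banding did not move Hcn2 past the threshold in either comparison with a sham. The AB hearts had 6.87, 6.80 and 6.85, within the range of the sAB hearts. The log2 difference, AB minus sAB, was 0.15 ± 0.17 (SE, adjusted p = 0.565), with a 95% interval of -0.22 to 0.52 that spans folds of 0.861 to 1.43, and without sAB replicate 3 it was -0.025. Every AB heart lay below every sDB3 heart, by at least 0.15, as for 10.5% of all genes, and AB minus sDB3 was -0.43 ± 0.17 (adjusted p = 0.0897). That difference passed after quantile normalization (-0.58, adjusted p = 0.0399), after median centring (-0.58, adjusted p = 0.0305) and without sAB replicate 3 (-0.43, adjusted p = 0.0475).

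The DB3 hearts had Hcn2 signals of 7.08, 6.87 and 6.75 and overlapped with sDB3 hearts. The log2 difference, DB3 minus sDB3, was -0.36 ± 0.17 (SE, 95% interval -0.73 to 0.0029, adjusted p = 0.196), where 6.36% of genes passed. Neither member passed in DB3 against sDB3 (0 of 2 with limma, 0 of 2 at an unadjusted p under 0.05, 0 of 2 in an unmoderated analysis of variance). DB3 minus AB was 0.06 ± 0.17 (95% interval -0.30 to 0.43, adjusted p = 0.863), and it turned to -0.027 without DB3 replicate 1. The difference of effects was -0.51 ± 0.23 (95% interval -1.03 to 0.0042, adjusted p = 0.209), opposite in sign to that of Scn4b. Low to high, the group means ran sAB, AB, DB3, sDB3, with no neighbours past the threshold, and the F test over the groups missed it (F = 4.34, adjusted p = 0.0707).

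**Figure D3:**
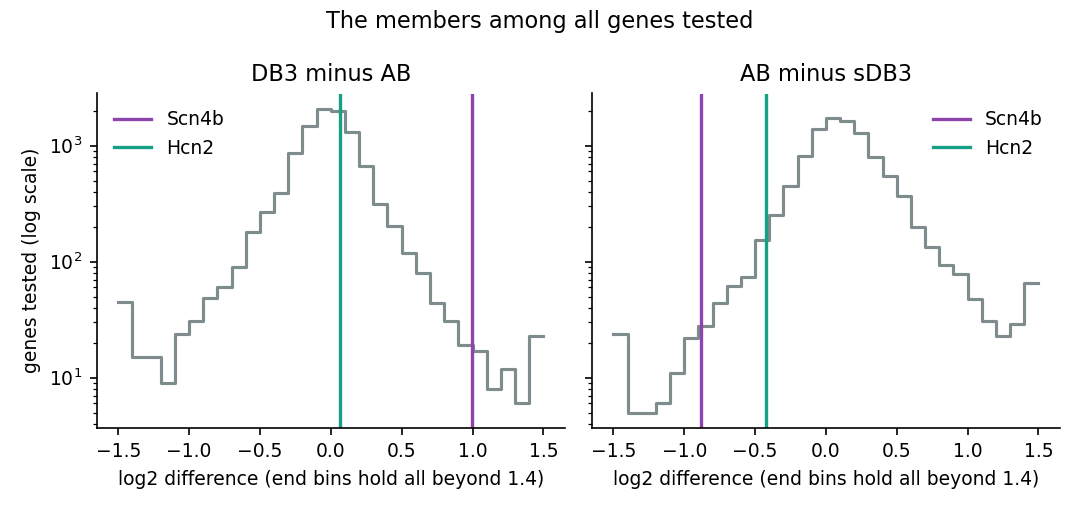
Number of genes tested (y axis, log scale) by log2 difference (x axis, bins of 0.1) in DB3 minus AB and AB minus sDB3, with the differences of Scn4b and Hcn2 as vertical lines. Scn4b lies in the tails at 0.997 and -0.88, and Hcn2 at 0.06 and -0.43.

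Other sodium and pacemaker channel subunits gave little signal in these hearts. Of 9 further alpha subunit and sodium leak channel genes with a probe set, 1 was above the dim level, Scn7a, which encodes a sodium-sensing channel of glia and other non-excitable cells. The beta subunit genes Scn2b and Scn3b were dim in every group, and so was the pacemaker channel gene Hcn3, at the same floor of 2.23 on all arrays. Scn7a signals were 8.73, 8.95 and 8.80 in AB hearts, against 8.16, 8.07 and 8.60 in sAB hearts. Scn7a was higher in AB than in sAB by 0.55 ± 0.13 (SE, adjusted p = 0.0137) and stood at 0.00 ± 0.13 in AB minus sDB3 (adjusted p = 0.983). Its call against sAB ended without AB replicate 2 or sAB replicate 1 (adjusted p up to 0.058), and the mean of its probe sets differed by 0.20 (adjusted p = 0.259).

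Among the genes chosen as pathway members, 21 were tested, namely channel subunits, channel partners and transcription factors known to act on these channel genes. Of these, 6 rose and 0 fell in AB against sAB with limma (8 and 1 at an unadjusted p under 0.05, 5 and 0 in an unmoderated analysis of variance), where 19.7% of all genes passed. In DB3 against sDB3, 2 rose and 0 fell (4 and 1 unadjusted, 1 and 0 unmoderated), where 6.36% of all genes passed. In DB3 against AB, 1 rose and 1 fell, beside 9.16% of all genes. Between the shams, sDB3 against sAB, 5 rose and 2 fell, beside 17.8% of all genes, and in AB against sDB3, 2 rose and 2 fell, beside 22% of all genes. Their median log2 differences were 0.10, -0.03, -0.05, 0.07 and 0.08 in these 5 comparisons, against 0.01, 0.09, -0.02, -0.09 and 0.11 over all genes tested.

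Fgf13, which encodes an intracellular protein that binds sodium channels and modulates their inactivation, was the partner that rose in DB3 against AB, and it is named because its values were seen. Its log2 signals were 11.43, 11.20 and 11.25 in DB3 hearts, against 10.95, 10.70 and 10.82 in AB hearts. The groups did not overlap, as for Scn4b, and the log2 difference was 0.47 ± 0.12 (SE, adjusted p = 0.0404). That call ended without AB replicate 2 or 3, sAB replicate 3, DB3 replicate 1, 2 or 3, or sDB3 replicate 1 (adjusted p up to 0.147). In AB against sDB3 Fgf13 was lower by a log2 difference of -0.58 ± 0.12 (adjusted p = 0.00952), and it stayed past the threshold without any 1 array and in the other alternatives run. AB minus sAB was -0.36 ± 0.12 (adjusted p = 0.0628). These 3 comparisons share the AB arrays.

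In AB against sDB3 2 further partners passed, both named because their values were seen. Pkp2, a desmosome protein, was higher in AB by 0.45 ± 0.071 (SE, adjusted p = 0.00248), and its call was kept in all 23 alternatives run. Ank2, a membrane adaptor protein, was lower by a log2 difference of -0.30 ± 0.076 (adjusted p = 0.02), a call that ended without AB replicate 2 or 3 or sDB3 replicate 1 (adjusted p up to 0.0792) and relative to the ventricular muscle marker mean (-0.19, adjusted p = 0.0599).

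In AB against sAB and DB3 against sDB3, the partners that passed were Camk2d and Dlg1. Camk2d, a calcium/calmodulin-dependent kinase of heart muscle, was higher in AB than in sAB by 0.34 ± 0.083 (SE, adjusted p = 0.0162). The mean of its probe sets went the other way (-0.19, adjusted p = 0.226), and without AB replicate 3 the adjusted p was 0.0621. The Camk2d means were 9.96 in AB, 9.62 in sAB, 9.95 in DB3 and 9.99 in sDB3. Between the shams, sDB3 minus sAB was 0.37 for Camk2d and also passed, a call kept in 20 of 22 alternatives. Dlg1, a scaffold protein of the cell membrane, was higher in DB3 than in sDB3 by 0.38 ± 0.086 (adjusted p = 0.0334). Its call ended without AB replicate 2, DB3 replicate 1, 2 or 3, or sDB3 replicate 2 or 3 (adjusted p up to 0.0884), and after median centring it was 0.25 (adjusted p = 0.0971). Dlg1 was also past the threshold between the shams, lower in sDB3 than in sAB (-0.30), a call that ended in 12 of 22 alternatives.

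Of 9 tested transcription factors, 4 rose and 0 fell in AB against sAB, where 19.7% of all genes passed. In sDB3 against sAB, which shares the sAB arrays, 3 rose and 0 fell at a list median of 0.35, beside 17.8% of all genes passing. They were Tbx5 (0.95 ± 0.19, limma adjusted p = 0.00914), Nkx2-5 (0.57 ± 0.10, adjusted p = 0.00611) and Mef2c (0.72 ± 0.099, adjusted p = 0.00214). The mean of the Mef2c probe sets went the other way there (-0.10, adjusted p = 0.532). In AB against sAB, Mef2c, a factor that acts on the Hcn4 gene, was higher by 0.88 ± 0.099 (SE, adjusted p = 0.00034), but the mean of its probe sets by 0.18 (adjusted p = 0.271). Rest, a repressor of neuronal and fetal cardiac genes that acts on Hcn2 and Hcn4, had log2 signals of 7.55, 7.48 and 7.58 in AB hearts, against 6.52, 7.17 and 7.12 in sAB hearts. It was higher in AB by 0.60 ± 0.18 (adjusted p = 0.039), a call that ended without AB replicate 1, 2 or 3, sAB replicate 1 or DB3 replicate 3 (adjusted p up to 0.113), and the mean of its probe sets differed by 0.16 (adjusted p = 0.328). The cardiac factors Nkx2-5 (0.42 ± 0.10, adjusted p = 0.0159) and Gata4 (0.42 ± 0.076, adjusted p = 0.00407) were the other two, and Nkx2-5 missed the threshold without AB replicate 2 or 3 or sAB replicate 1 (adjusted p up to 0.0553). Of these 4 factors Gata4 alone also passed in AB against sDB3 (0.25 ± 0.076, adjusted p = 0.0395), and after median centring it did not (0.099, adjusted p = 0.335), nor without AB replicate 1, 2 or 3, sAB replicate 2 or 3, or sDB3 replicate 1 or 2 (adjusted p up to 0.126). In DB3 against sDB3 the factor that rose was Foxo1, a forkhead factor, at 0.35 ± 0.093 (adjusted p = 0.0498), a call that ended without any 1 of 11 arrays, all but sDB3 replicate 3 (adjusted p up to 0.128).

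**Figure D4:**
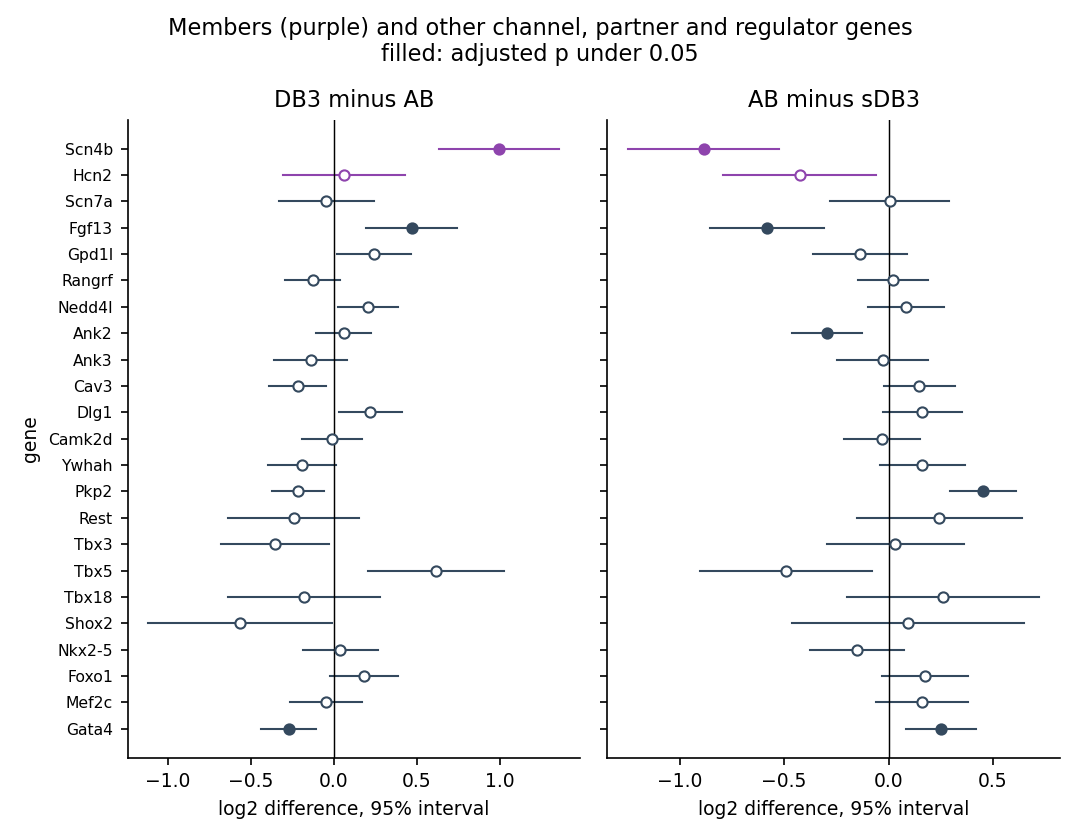
Log2 differences (x axis, 95% intervals) of Scn4b and Hcn2 (purple) and of the 21 other channel, partner and transcription factor genes tested (y axis) in DB3 minus AB and AB minus sDB3, with filled points at an adjusted p under 0.05. Fgf13 passed in both panels, at 0.47 and -0.58.

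The genes whose signals were most like that of Scn4b over the 12 arrays, by Pearson's r across arrays that include the 4 groups, were A530016L24Rik (r = 0.88), Per1 (0.879), Gdap10 (0.869), Mrps21 (0.868) and Pim3 (0.866). With each group's mean taken away, r was between 0.264 for Pim3 and 0.629 for Mrps21. The period gene Per1 of the circadian clock ranged far more widely than Scn4b, with means of 3.94 in AB, 4.64 in sAB, 7.33 in DB3 and 6.02 in sDB3, the AB mean being at the dim level. The kinase gene Pim3 had means of 10.78 in DB3 and 9.50 in AB.

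For Hcn2 the most alike genes were Col27a1 (r = 0.929), Usf2 (0.909), Fbxw9 (0.906), Pstk (0.865) and Ogfr (0.852). With the group means taken away, r was 0.691 to 0.865 over the same 12 arrays, which include the low sAB replicate 3 and the high sDB3 replicate 3. The signals of Col27a1, a collagen gene, and Fbxw9, an F-box gene, lay close to the dim level, with sDB3 means of 4.97 and 4.63. Col27a1 repeated the value 4.613 on AB replicates 2 and 3, sAB replicates 1 and 2 and DB3 replicates 1 and 2. Fbxw9 repeated the value 4.137 on AB replicates 1 and 2, sAB replicate 2 and all 3 DB3 arrays. Usf2, an E-box binding transcription factor, had means of 8.31 in sDB3 and 7.81 in sAB. These correlations describe these arrays and carry no test.

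**Figure D5:**
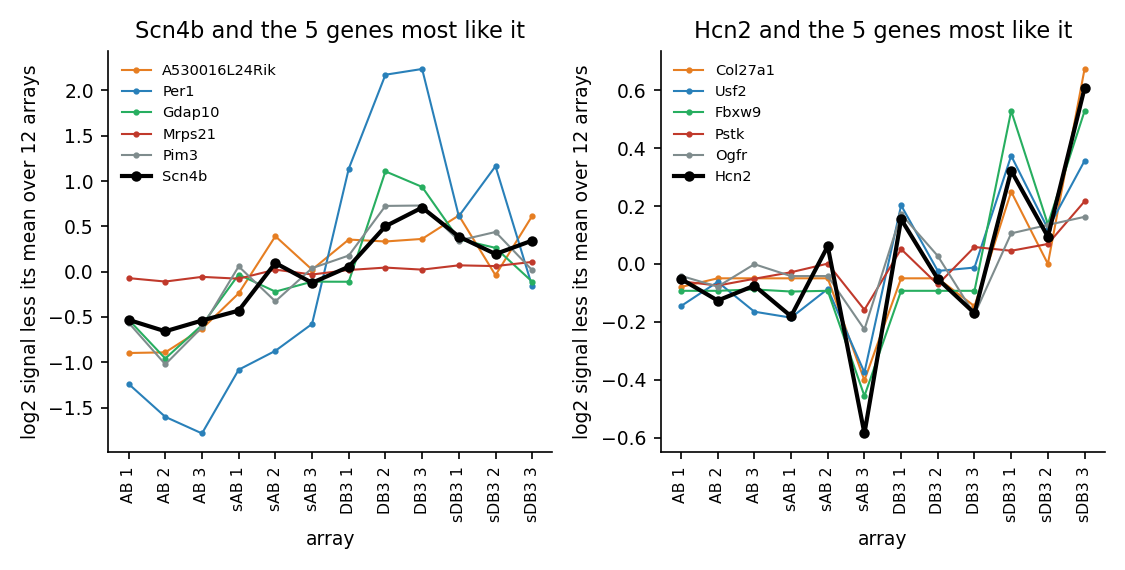
Log2 signal less its mean over 12 arrays (y axis) of Scn4b (left) and Hcn2 (right), drawn in black, and of the 5 genes most like each, on each array (x axis). Scn4b and 4 of its 5 genes are low on all AB arrays, Mrps21 moving least, and Hcn2 has its lowest signal on sAB replicate 3 and its highest on sDB3 replicate 3.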

How the data were processed

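The deposited values are log2 signals per probe set on 12 arrays in 1 table, made by the authors with GCRMA per the submitters' processing notes. The sources used here give neither GCRMA's settings nor a genome build. Total RNA was labelled with biotin, per the labels' protocols. Probe sets with 1 gene symbol (34945, against 932 with several, 9160 with none and 64 controls) were used, with symbols updated by gene ID through RefSeq (34741 found). A probe set entered above log2 4 on at least 3 arrays (17817), and each gene took the one with the highest mean (10435 genes). Limma 3.58.1 in R 4.3.3 (lmFit, eBayes) fitted 4 group means with 8 residual degrees of freedom, and tests are two-sided. With 3 arrays a group, the smallest exact permutation p is 0.1, so none was used. The fit was tested on simulated data. Members, gene lists, naming rules and alternatives were chosen with earlier results of these data known. Named genes are the members, Hcn3, pathway genes that passed in AB against sAB or DB3 against sDB3, the 5 genes most like each member and up to 2 markers a list. Others (Fgf13, Pkp2, Ank2, Tbx5, Sox10, Emcn, Tnni3, Ryr2, Kcnj3, Nr2f2, Scn2b, Scn3b) were named after their values were seen. Some items of the rule are not reported here. The series' design text gives 3 mice a group; replicate numbers here follow accession order and pair nothing. Their number limits the precision. Alternatives were other filters, probe set rules and normalizations, other fits (an unmoderated analysis of variance among them) and leaving out each array, plus 2 added after seeing the data (without the sAB arrays, and less the ventricular muscle marker mean).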

Additional observations from a re-analysis of the deposited data

Results flagged for a closer look

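For 3 of 21 pathway genes tested the difference of effects, DB3 minus sDB3 less AB minus sAB, passed the threshold, beside 6.04% of all genes. It is a limma test of the difference itself. Mef2c stood at -0.76 ± 0.14 (SE, adjusted p = 0.0174), with means of 10.59 in AB and 9.71 in sAB, against 10.54 in DB3 and 10.43 in sDB3. The mean of its probe sets gave 0.019 (adjusted p = 0.958), and without AB replicate 3 the adjusted p was 0.0517. Gata4 stood at -0.44 ± 0.11 (adjusted p = 0.04) and Dlg1 at 0.51 ± 0.12 (adjusted p = 0.037), and each call ended in 10 of the 12 fits that leave out 1 array (adjusted p up to 0.0953 and 0.0879). For Gata4 the 2 fits that kept it were those without DB3 replicate 1 or sDB3 replicate 2, and for Dlg1 those without AB replicate 1 or sDB3 replicate 1. All 3 differences use the sAB arrays, which stand apart on BioC.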

How the results depend on the processing

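Over the 12 results of Scn4b and Hcn2 and their 268 alternative values, 247 kept direction and side of the threshold, 10 lost the call, 7 gained one and 4 turned sign. The higher Scn4b in DB3 than in AB kept its call in all 23 alternatives (0.85 to 1.18, adjusted p up to 0.0286), as did the lower Scn4b in AB than in sDB3 (-1.03 to -0.78, adjusted p up to 0.0235). The sign turned for Scn4b in DB3 against sDB3 with median centring (-0.017), and, with the mean of probe sets, for Camk2d in AB against sAB (-0.19) and sDB3 against sAB (-0.0048) and Mef2c in the difference of effects (0.019) and sDB3 against sAB (-0.10). Of 24 calls of pathway genes 5 were kept under every alternative. Of the 2 members, 0 passed in sDB3 against sAB with no filter on dim probe sets, with only the groups compared and in the unmoderated analysis of variance, and 2 with quantile normalization and with median centring, as in AB against sDB3. Leaving out 1 array gave 0 to 1 members in AB against sAB, 0 to 2 in sDB3 against sAB and 1 to 2 in AB against sDB3. It gave -0.56 to -0.30 for Scn4b and -0.025 to 0.30 for Hcn2 in AB against sAB, -0.031 to 0.30 for Scn4b and -0.49 to -0.23 for Hcn2 in DB3 against sDB3, and -0.027 to 0.14 for Hcn2 in DB3 against AB. Genes past the threshold numbered, over these fits, 1139 to 2119 in AB against sAB (2058 with all arrays), 170 to 535 in DB3 against sDB3 (664), 152 to 567 for the difference of effects (630), 365 to 1031 in DB3 against AB (956), 967 to 1945 in sDB3 against sAB (1861) and 1124 to 2354 in AB against sDB3 (2298). Testing every probe set gave 3391 in AB against sAB, 976 in the difference of effects and 2987 in sDB3 against sAB. No filter gave 323 in DB3 against sDB3 and 338 for the difference of effects. Only the groups compared gave 0 in DB3 against sDB3, 629 in DB3 against AB and 571 in sDB3 against sAB, and no value for the difference of effects. In DB3 against sDB3, quantile normalization gave 203, the unmoderated analysis of variance 427 and the fit without the sAB arrays 400. Taking off the ventricular muscle marker mean gave 2722 in DB3 against sDB3, 980 for the difference of effects and 3822 in AB against sDB3. The cause of these changes was not tested. No paired analysis was possible because the labels give no replicate numbers. GCRMA signals carry no measure of background, so what dim signal limits was set by the log2 threshold alone.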
